A study of Rattus norvegicus with 18 samples.

Results

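Neonatal rat ventricular cardiomyocytes paced at 8 Hz for 3 h in the presence of 10 µM KB-R7934 (tachycardia + KB-R7934, written TC + KB here) were compared with cells of the same kind paced at 1 Hz for 3 h (the 1 Hz control). KB-R7934 is the spelling of the sample labels for an inhibitor of the reverse, calcium-importing mode of the sodium-calcium exchanger NCX, also written KB-R7943. The comparison used 3 arrays of each group, chosen by their titles, so 6 of the 18 arrays of the series, and it covered 14557 genes, each read on the brightest of its transcript clusters that carry exactly 1 gene symbol. Such clusters make up 14824 of the 36685 on the Rat Gene 2.0 ST array (40.4%). The cells came from ventricles of newborn Wistar rats and were cultured for 3 days before pacing, with no genetic change in either group. Inhibitor-treated dishes were incubated with the drug before pacing began. The cultures were enriched for myocytes and were not pure, and each array held RNA pooled from 4, 3 or 6 technical replicates (replicates 1, 2 and 3 in both groups). TC + KB differed from its control both in pacing rate and in the presence of the drug, so within this comparison the parts of rate and drug cannot be told apart. The series also holds 3 arrays of cells paced at 8 Hz without the drug, which were not used here, and none labelled as 1 Hz with the drug. The comparison therefore describes the state that paced, inhibitor-treated cells were in.

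Fast pacing shortens the interval in which a cardiomyocyte returns calcium to its stores and to the outside. NCX normally removes calcium in exchange for sodium and can run backwards when sodium rises inside the cell. Calcium in turn acts on transcription through kinases and phosphatases such as CaMKII and calcineurin, and the immediate early genes are the best known quick responders. NF-kappaB is a family of transcription factors (Rel, Relb, Nfkb1 and Nfkb2 among them) held in the cytoplasm by inhibitor proteins and released by stress and cytokine signals. Its targets include chemokines, adhesion molecules and its own subunits and inhibitors.

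Among the gene lists, NF-kappaB genes and cytokines had the largest number of called genes with higher values in TC + KB (13 of 35). Markers of macrophages and other leukocytes had the largest number with lower values (13 of 25). Such numbers depend on the size of a list. The lists were written with earlier results of these data known, so their counts describe these arrays and test nothing. Smaller lists had larger shares of genes called higher than the NF-kappaB list. These were the RGK proteins that restrain calcium channels (3 of 4), clock genes (5 of 11) and zinc-handling genes (3 of 7). A gene is said here to pass the study's threshold, or to be called, when its unadjusted limma p was under 0.05 and its difference at least 1.2-fold (0.263 on the log2 scale). That threshold was passed by 627 genes with higher values (4.31% of genes) and 538 with lower values (3.70%), together 8.00%. These shares are the background for every count of called genes in a list. Over all clusters it was passed by 1743 with higher values (4.75%) and 1422 with lower values (3.88%), together 8.63%. With each array centred on its median the share of higher values among called clusters was 44.1%, against 55.1% as deposited, so the balance between the directions depends on scaling. After Benjamini-Hochberg adjustment over all clusters 0 clusters had a limma p under 0.05, the smallest adjusted p being 0.412, while 3189 clusters had an unadjusted p under 0.05, where 1834 are expected with no effect. The methods' t-test and two-way test, run without limma's moderation, also gave 0 clusters after adjustment, with 2966 and 3090 at an unadjusted p under 0.05. Calls rest on the unadjusted p, whereas the p printed beside a gene is adjusted over all clusters and shows that no single gene passed after correction. Differences are log2 value in TC + KB minus log2 value at 1 Hz, with the standard error of limma (SE) over 3 arrays per group.

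**Figure D1:**
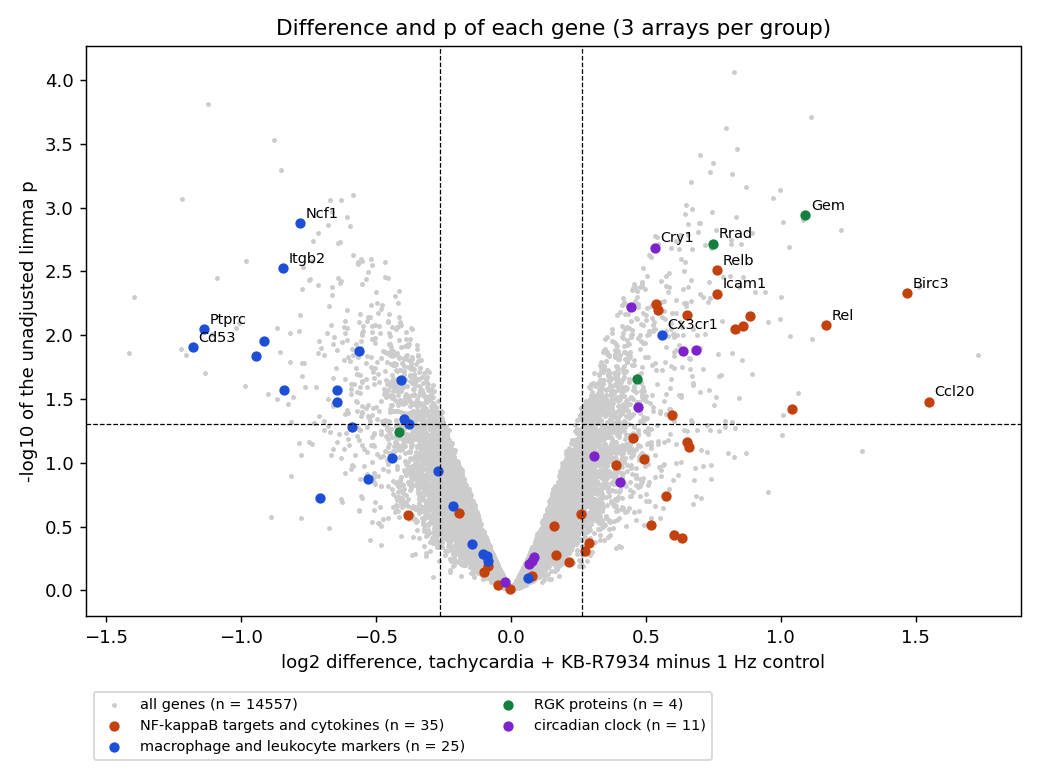
Each point is 1 of 14557 genes, with the log2 difference between tachycardia + KB-R7934 and the 1 Hz control on the x axis and -log10 of the unadjusted limma p on the y axis, and dashed lines at the study's threshold. The 13 called NF-kappaB and cytokine genes lie on the right and 13 called macrophage and leukocyte markers on the left.

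Most differences were small. The median size over all genes was 0.13 on the log2 scale, and 17 called genes were more than 2-fold higher and 13 more than 2-fold lower. The arrays of the 2 groups did not overlap for 16.6% of genes (8.64% with all 3 TC + KB arrays above the controls and 7.98% with all 3 below). Pearson correlations between arrays were 0.983 to 0.985 among controls, 0.981 to 0.984 among TC + KB arrays and 0.976 to 0.985 between groups. The files give no depth, and precision is limited by having 3 arrays in a group. The titles number the arrays of each group as biological replicates. They do not say whether arrays with the same number in both groups share a culture preparation. The p-values measure the spread between these arrays.

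Promoters of 6 called genes are shown first, picked by hand from the NF-kappaB, activity-induced and zinc-handling lists. All 6 hold a match to the motif searched. Called genes of these lists without a match, such as Icam1, Ptgs2, Klf4 and Fosb, are not printed. Each is the stretch of 250 bases that ends just before the gene's start, read 5′ to 3′ in the direction of the gene, from RefSeq (build GRCr8). In Rel, Ccl20, Nfkb2 and Cxcl10 the capitals mark the canonical NF-kappaB decamer, searched on both strands, with overlapping matches run together.
Rel, chr14:101921939-101922188, minus strand: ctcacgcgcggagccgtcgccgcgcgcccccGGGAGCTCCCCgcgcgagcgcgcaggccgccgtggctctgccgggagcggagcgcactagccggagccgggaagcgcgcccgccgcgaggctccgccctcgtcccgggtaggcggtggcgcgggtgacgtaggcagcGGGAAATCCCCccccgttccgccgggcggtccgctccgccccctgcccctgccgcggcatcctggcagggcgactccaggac
Ccl20, chr9:91836909-91837158, plus strand: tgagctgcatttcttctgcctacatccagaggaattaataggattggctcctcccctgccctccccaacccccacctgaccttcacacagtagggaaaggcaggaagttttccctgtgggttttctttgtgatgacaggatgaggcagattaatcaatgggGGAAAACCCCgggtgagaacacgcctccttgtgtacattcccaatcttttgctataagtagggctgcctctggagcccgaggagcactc
Nfkb2, chr1:255108124-255108373, plus strand: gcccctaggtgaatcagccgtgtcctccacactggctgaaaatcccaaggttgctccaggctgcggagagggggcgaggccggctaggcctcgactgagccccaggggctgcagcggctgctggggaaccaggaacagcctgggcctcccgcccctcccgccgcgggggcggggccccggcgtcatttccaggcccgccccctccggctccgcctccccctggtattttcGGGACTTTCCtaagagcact
Cxcl10, chr14:15988816-15989065, plus strand: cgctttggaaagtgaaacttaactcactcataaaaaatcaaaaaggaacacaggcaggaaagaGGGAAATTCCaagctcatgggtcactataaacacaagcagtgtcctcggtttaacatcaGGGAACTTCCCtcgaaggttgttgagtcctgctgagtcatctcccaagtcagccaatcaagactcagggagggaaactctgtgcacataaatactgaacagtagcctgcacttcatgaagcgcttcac
In Nr4a1 the capitals mark TGACG, the core of the cAMP response element to which CREB binds, on either strand.
Nr4a1, chr7:134259888-134260137, plus strand: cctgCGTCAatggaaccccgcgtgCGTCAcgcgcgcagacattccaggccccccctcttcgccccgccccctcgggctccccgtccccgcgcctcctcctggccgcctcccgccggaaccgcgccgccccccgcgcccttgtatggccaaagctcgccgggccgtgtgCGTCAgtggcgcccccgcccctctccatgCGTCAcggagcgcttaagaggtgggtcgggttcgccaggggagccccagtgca
In Mt2A they mark TGCNCNC on either strand, a loose pattern that takes in the core of the metal response element to which the zinc sensor Mtf1 binds. A marked stretch need not be such a core.
Mt2A, chr19:10838709-10838958, minus strand: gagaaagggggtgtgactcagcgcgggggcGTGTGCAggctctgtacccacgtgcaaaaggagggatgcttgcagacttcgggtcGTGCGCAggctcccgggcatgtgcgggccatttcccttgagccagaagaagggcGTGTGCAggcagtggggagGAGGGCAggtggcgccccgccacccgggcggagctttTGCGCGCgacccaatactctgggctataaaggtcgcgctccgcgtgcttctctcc
The decamer occurred in 6.33% of all 33469 promoter stretches of this length in the table, TGACG in 18.2% and TGCNCNC in 43.4%. A match is a stretch of letters and not a measured binding site.

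Of 35 measured genes of this list, 29 had higher means in TC + KB, and 13 passed the study's threshold with higher values (against 4.31% of all genes) and 0 with lower values. The 3 TC + KB arrays lay above the 3 controls for 13 (against 8.64% of all genes). The median difference of the list was 0.54, against 0.00 over all genes. It was not spread evenly over the replicates. By array, the median of the list stood 0.83, 0.44 and 0.10 above the control mean in TC + KB replicates 1, 2 and 3, while the controls lay between -0.12 and 0.15, so that TC + KB replicate 3 fell within the range of the controls. Without TC + KB replicate 1 the median was 0.25 and 11 genes were called, and without TC + KB replicate 3 it was 0.70 with 18 called.

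Among the transcription factor subunits, Rel, the gene of c-Rel, read 6.69, 7.61 and 6.52 at 1 Hz and 7.71, 8.42 and 8.20 in TC + KB, a difference of 1.17 (SE 0.32, adjusted p = 0.473). Relb, the partner of p52 in the non-canonical pathway, read 6.79, 6.72 and 6.52 against 7.51, 7.69 and 7.13, a difference of 0.76 (SE 0.17, adjusted p = 0.433). For both genes every TC + KB array lay above every control array. Nfkb2, which encodes the p100 precursor of p52, stood at 0.83 (SE 0.23), and Nfkb1, which encodes the p105 precursor of p50, at 0.65 (SE 0.17), both called and without overlap. Bcl3, a nuclear protein that binds p50 and p52, was 0.86 higher (SE 0.24) and Nfkbie, which encodes the inhibitor IkappaB-epsilon, 0.60 higher (SE 0.24). Nfkbie differed by 0.33 without TC + KB replicate 1, and its call was lost in 4 of 6 omissions of 1 array. Nfkbia, the gene of IkappaB-alpha, had a higher mean that did not pass, at 0.45 (SE 0.20, adjusted p = 0.589).

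Among the targets, the ubiquitin ligase Birc3 (cIAP2) read 6.05, 5.42 and 5.47 at 1 Hz and 7.84, 7.05 and 6.46 in TC + KB, a difference of 1.47 (SE 0.36, adjusted p = 0.451). The chemokine Ccl20 read 7.91, 6.79 and 7.43 against 10.3, 8.04 and 8.47, a difference of 1.55 (SE 0.58, adjusted p = 0.549). Its groups did not overlap, but the lowest TC + KB array was close to the highest control and replicate 1 stood far above the rest, without which the difference was 0.88. The adhesion molecule Icam1 read 8.39, 8.63 and 8.04 against 9.21, 9.26 and 8.89, with a difference of 0.76 (SE 0.19, adjusted p = 0.451). Ptgs2, the inducible cyclooxygenase, was 0.89 higher (SE 0.23), the macrophage growth factor Csf1 0.55 higher (SE 0.14) and the chemokine Cxcl10 0.54 higher (SE 0.14), each without overlap. Csf3, the granulocyte growth factor, was 1.04 higher (SE 0.41, adjusted p = 0.557) with arrays that overlapped, and 0.68 higher without TC + KB replicate 1. Several well-known cytokines of the list were not called. Il6 differed by 0.52 (SE 0.47), Tnf by 0.57 (SE 0.39) and Il1b by 0.29 (SE 0.34), while Ccl2 differed by 0.16 (SE 0.14), Cxcl2 by -0.38 (SE 0.31) and Lcn2 by 0.00 (SE 0.12).

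**Figure D2:**
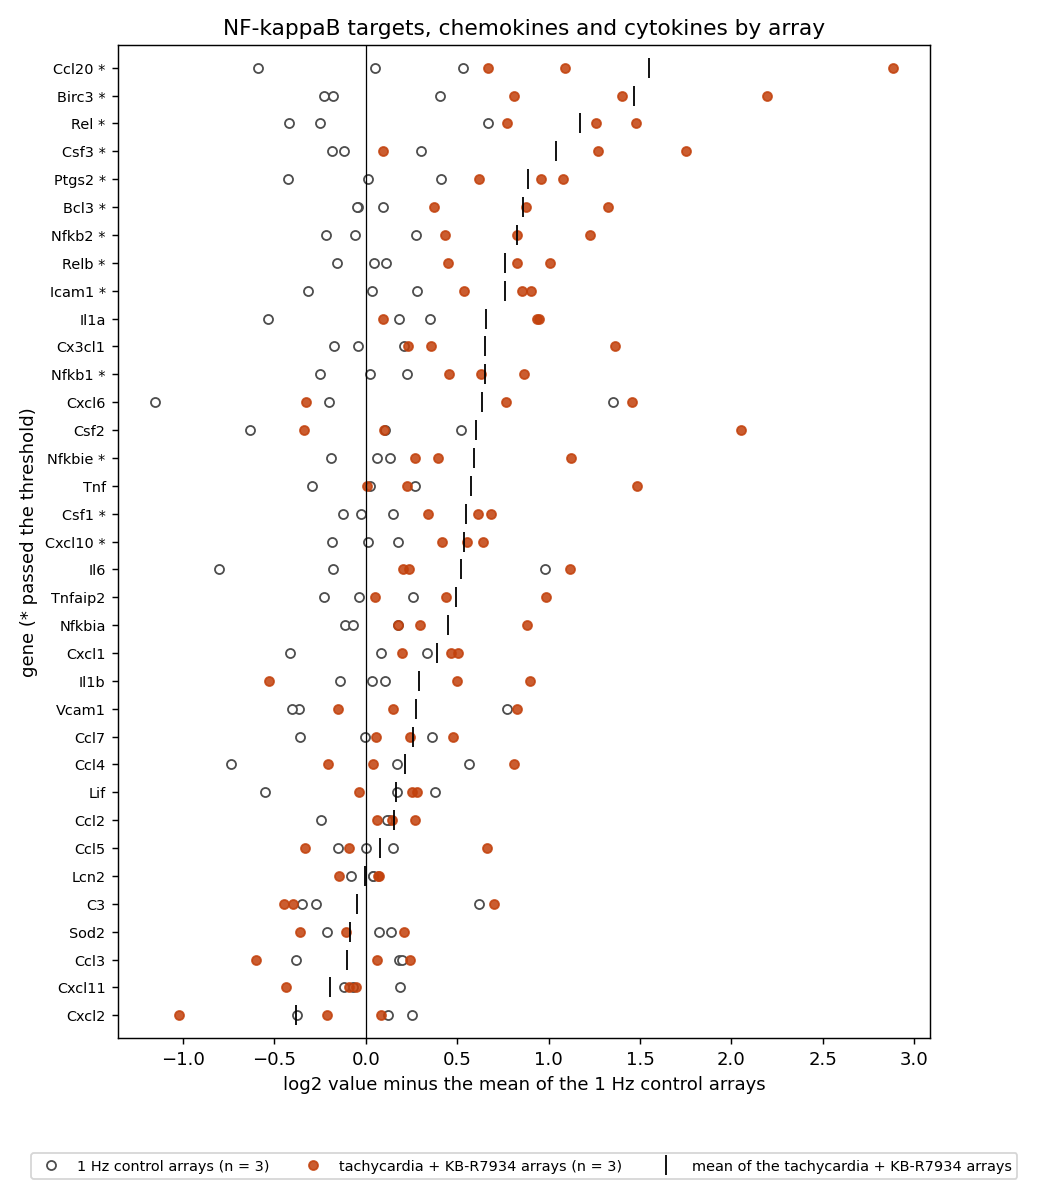
Log2 value minus the mean of the 1 Hz control arrays (x axis) for all 35 measured NF-kappaB targets, chemokines and cytokines (y axis), with open circles for the 3 control arrays, filled circles for the 3 tachycardia + KB-R7934 arrays and a bar for their mean. Ccl20 and Birc3 are at the top with means of 1.55 and 1.47, and Cxcl2 at the bottom with -0.38.

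The table of promoters held 26 of the 35 genes, and 15 of these 26 had the NF-kappaB decamer. Among the 13 called genes it held 9, of which 6 had a match (Rel, Ccl20, Nfkb2, Cxcl10, Bcl3 and Nfkbie) and 3 had none in this window (Icam1, Nfkb1 and Ptgs2). Among genes not called it held 17, of which 9 had a match. Rel and Cxcl10 each had it in 2 places, as the capitals in the printed sequences show.

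Markers of macrophages and other leukocytes stood lower. Of 25 measured markers, 23 had lower means in TC + KB, 13 passed the threshold with lower values (against 3.70% of all genes) and 1 passed with higher values. The arrays did not overlap for 10 lower and 1 higher (against 7.98% and 8.64% of all genes). The median difference was -0.53. The summed linear level of the list ranged from 3534 to 5209 over the control arrays and from 2363 to 3567 over the TC + KB arrays, so the ranges met, with control replicate 1 the lowest control and TC + KB replicate 2 the highest of the other group. In bulk RNA, fewer cells of a type cannot be told apart from less RNA of these genes per cell. Of the 25 markers, 1 lay below the lower quartile of all clusters on each control array and 2 on each TC + KB array.

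The pan-leukocyte phosphatase Ptprc (CD45) read 6.34, 7.51 and 7.03 at 1 Hz and 5.82, 6.17 and 5.49 in TC + KB, a difference of -1.14 (SE 0.32, adjusted p = 0.473). The leukocyte tetraspanin Cd53 read 7.35, 8.26 and 7.96 against 6.86, 7.17 and 6.00, a difference of -1.18 (SE 0.35, adjusted p = 0.485). The beta-2 integrin gene Itgb2 read 7.52, 7.61 and 7.72 against 6.58, 7.18 and 6.55, a difference of -0.85 (SE 0.19, adjusted p = 0.428). All 3 genes had every TC + KB array below every control. Ncf1, a cytosolic subunit of the phagocyte NADPH oxidase, differed by -0.78 (SE 0.15), and the signalling adaptors Fcer1g and Tyrobp by -0.95 (SE 0.29) and -0.92 (SE 0.27). Lower calls were also made for Lcp1, Msr1, Cd14, Adgre1, Clec4a3, Aif1 and Spi1, with differences between -0.84 and -0.38, of which Lcp1, Msr1, Cd14 and Spi1 had overlapping arrays.

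Other markers of the same list did not pass. The complement genes C1qa, C1qb and C1qc differed by -0.22 (SE 0.16), -0.08 (SE 0.15) and 0.06 (SE 0.25), Trem2 by -0.10 (SE 0.15), Cd68 by -0.53 (SE 0.31) and Csf1r, the receptor of Csf1, by -0.59 (SE 0.25, adjusted p = 0.576). The fractalkine receptor Cx3cr1 went the other way. It read 4.45, 4.96 and 4.60 at 1 Hz and 5.32, 5.24 and 5.12 in TC + KB, a difference of 0.56 (SE 0.16, adjusted p = 0.473), with a control mean below the median level of all clusters, 5.30. Its ligand Cx3cl1 had all 3 TC + KB arrays above the controls and did not pass (0.65, SE 0.30, adjusted p = 0.595).

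**Figure D3:**
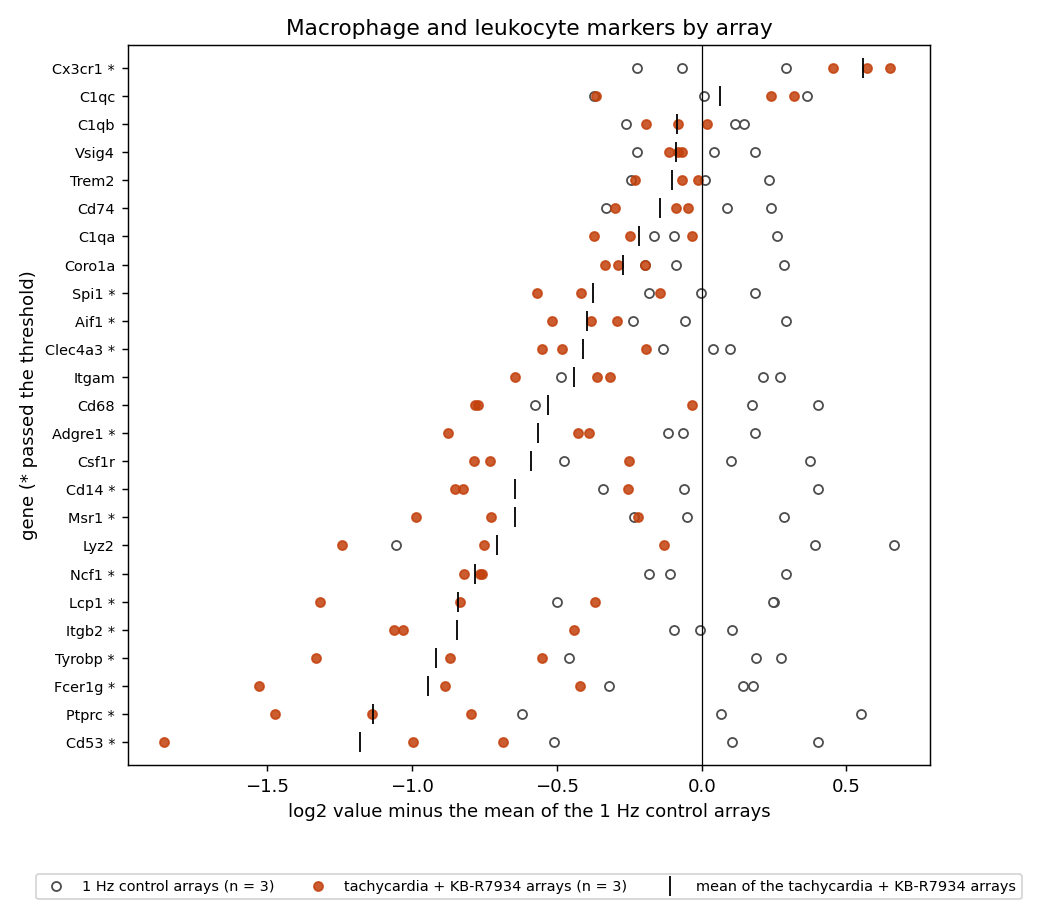
Log2 value minus the mean of the 1 Hz control arrays (x axis) for all 25 measured macrophage and leukocyte markers (y axis), with open circles for control arrays, filled circles for tachycardia + KB-R7934 arrays and a bar for their mean. Cd53 and Ptprc have the lowest means, -1.18 and -1.14, and Cx3cr1 the highest, 0.56.

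The number of called markers depended on single arrays. It was 7 without control replicate 3, without TC + KB replicate 1 or without TC + KB replicate 3, and 15 without control replicate 1, with medians between -0.38 and -0.68 over all 6 omissions. Myeloid receptors outside the list were also named by the rule. Clec4d read 6.65, 7.83 and 7.38 at 1 Hz and 6.18, 6.41 and 5.02 in TC + KB (-1.42, SE 0.43), and Clec4e, the neighbouring C-type lectin receptor, stood at -1.23 (SE 0.37). Igsf6, an immunoglobulin-family receptor of myeloid cells, had the smallest p among named genes with lower values (-1.12, SE 0.15, adjusted p = 0.412). Leukocyte genes outside both the list and the rule went both ways. For example, Mnda (0.86, SE 0.20) and Lag3 (0.43, SE 0.12) were called higher, and Fcgr1a (-1.11, SE 0.31) and Hcst (-1.01, SE 0.27) lower, all without overlap. These examples were picked after their values were seen. Of 15 fibroblast, 13 endothelial and 6 smooth muscle and pericyte markers 0 were called (against 8.00% of all genes in either direction). Their medians were -0.10, 0.02 and 0.09. The endothelial median was -0.02 after quantile normalisation, with 1 marker called lower under that scaling and under median centring. Of 4 erythroid markers, Ahsp was called higher (0.37) and Hemgn lower (-0.40), both at low levels (against 4.31% and 3.70% of all genes). The part of the leukocyte content in the NF-kappaB and cytokine differences was not tested.

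The RGK proteins are small GTPases that bind calcium channel beta subunits and reduce calcium current. Of the 4 members 3 were called higher (against 4.31% of all genes), each without overlap (against 8.64% with all 3 arrays above), and the median was 0.61. Gem read 6.91, 7.13 and 6.75 at 1 Hz and 7.64, 8.35 and 8.08 in TC + KB, a difference of 1.09 (SE 0.20, adjusted p = 0.412). Rrad, abundant in muscle, read 6.74, 7.15 and 7.08 against 7.65, 7.66 and 7.92, a difference of 0.75 (SE 0.15, adjusted p = 0.412). In both genes every TC + KB array lay above every control. Rem2 read 5.26, 4.94 and 4.72 against 5.49, 5.47 and 5.35, a smaller difference of 0.47 (SE 0.16, adjusted p = 0.53). Rem1 had a lower mean (-0.41, SE 0.18, adjusted p = 0.581) that passed the threshold after quantile normalisation or median centring. Of 15 sodium and calcium channels, pumps and exchangers in the list fixed for them, 0 were called (against 8.00% of all genes in either direction), with a median of -0.05. Of 17 potassium channel genes 2 were called higher (against 4.31% of all genes), Kcne1, a subunit of the slow delayed rectifier, at 0.45 (SE 0.13) and Kcna5, a subunit of the ultrarapid one, at 0.46 (SE 0.15). Kcna5 read 3.67 to 3.89 at 1 Hz, near the lower quartile of the control arrays (3.76 to 3.80).

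Of 11 clock genes 10 had higher means and 5 were called higher (against 4.31% of all genes), with a median of 0.40, and of 0.25 without TC + KB replicate 2. The clock is a loop in which the factors Bmal1 and Clock drive the Per and Cry genes, whose proteins hold them back. Cry1 read 7.36, 7.54 and 7.47 at 1 Hz and 7.92, 8.07 and 7.99 in TC + KB, a difference of 0.53 (SE 0.11, adjusted p = 0.412). Cry2 was 0.44 higher (SE 0.11, adjusted p = 0.454), and the tight replicates of both genes left a clear gap between the groups. Bhlhe40 (Dec1), a repressor of the loop, was 0.69 higher (SE 0.21) and Nfil3, a repressor of clock output, 0.64 higher (SE 0.19), both without overlap, while Bmal1 was 0.47 higher (SE 0.18, adjusted p = 0.555) with arrays that overlapped. Per1 and Per2 had higher means that were not called, 0.40 (SE 0.24) and 0.31 (SE 0.16), and Clock, Npas2, Dbp and Per3 lay between -0.02 and 0.08. With each array centred on its median 4 clock genes were called.

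Immediate early and activity-induced transcription factors had higher means for 25 of 27 genes, with a median of 0.41, but 5 were called (against 4.31% of all genes called higher). Nr4a1 (Nur77), an orphan nuclear receptor induced by calcium and cAMP, read 8.04, 8.76 and 7.64 at 1 Hz and 9.04, 9.93 and 10.0 in TC + KB, a difference of 1.51 (SE 0.36, adjusted p = 0.451). Klf4 read 8.71, 8.65 and 8.67 against 9.01, 9.14 and 9.13, a difference of 0.41 (SE 0.10, adjusted p = 0.453). Arc was 0.53 higher (SE 0.14), the kinase gene Sik1 0.60 higher (SE 0.19) and Fosb 0.84 higher (SE 0.31), and all 5 called genes were free of overlap. Fosb differed by 0.52 without control replicate 3. Fos, Atf3 and Egr1 had higher means, 0.81 (SE 0.40), 0.83 (SE 0.42) and 0.40 (SE 0.24), and did not pass. Replicate 2 was the highest array for this list in both groups. The median of the list stood at -0.08, 0.37 and -0.31 in control replicates 1, 2 and 3 and at 0.14, 0.58 and 0.45 in TC + KB, and without control replicate 2 the median difference was 0.65 with 17 genes called, against 0.24 with 4 called without control replicate 3. In the printed Nr4a1 promoter TGACG occurs in 4 places, a count reached by 0.0896% of all promoters. That cut-off is the count of Nr4a1 itself, a gene picked for its call, so the share tests nothing. Of the 5 called genes 4 had a promoter in the table and 2 of them a match, against 11 of 14 among those not called.

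The phosphatases that switch MAP kinases off had 4 of 11 genes called higher (against 4.31% of all genes) and a median of 0.27. Dusp10, which acts on p38 and JNK, was 0.85 higher (SE 0.18, adjusted p = 0.412), Dusp4 0.57 higher (SE 0.17), Dusp5 0.39 higher (SE 0.15) and Dusp7 0.42 higher (SE 0.18). Dusp7 had overlapping arrays. Dusp6 and Spry1, feedback inhibitors of ERK signalling, had lower means that were not called, -0.29 (SE 0.23) and -0.44 (SE 0.20). With median centring 1 gene of this list was called lower. Among stress and growth-arrest genes of the p53 list, 3 of 16 were called higher (against 4.31% of all genes), Gadd45b at 0.66 (SE 0.21), Tp53inp1 at 0.56 (SE 0.18) and Gadd45a at 0.43 (SE 0.16).

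Heat shock proteins and co-chaperones had higher means in nearly every gene and few calls. All 21 measured genes had higher means in TC + KB in the deposited scaling (19 after median centring), with a median of 0.33. Of the 21, 2 were called higher (against 4.31% of all genes). They were Dnaja4 at 0.75 (SE 0.29) and Hspa4l at 0.73 (SE 0.26), both with overlapping arrays. The inducible Hsp70 gene Hspa1b stood at 7.69 ± 1.12 (SD, n = 3) at 1 Hz and 8.65 ± 0.83 in TC + KB, a difference of 0.95 (SE 0.62, adjusted p = 0.69), and the small heat shock protein gene Hspb8 differed by 0.52 (SE 0.22, adjusted p = 0.576). Control replicate 2 and TC + KB replicate 1 broke the separation. The list stood at -0.14, 0.30 and -0.19 in the controls and at 0.05, 0.44 and 0.47 in TC + KB, and without control replicate 2, 13 genes were called with a median of 0.51. The median was 0.21 without control replicate 3, and 0 were called when control replicate 1, control replicate 3, TC + KB replicate 2 or TC + KB replicate 3 was left out.

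**Figure D4:**
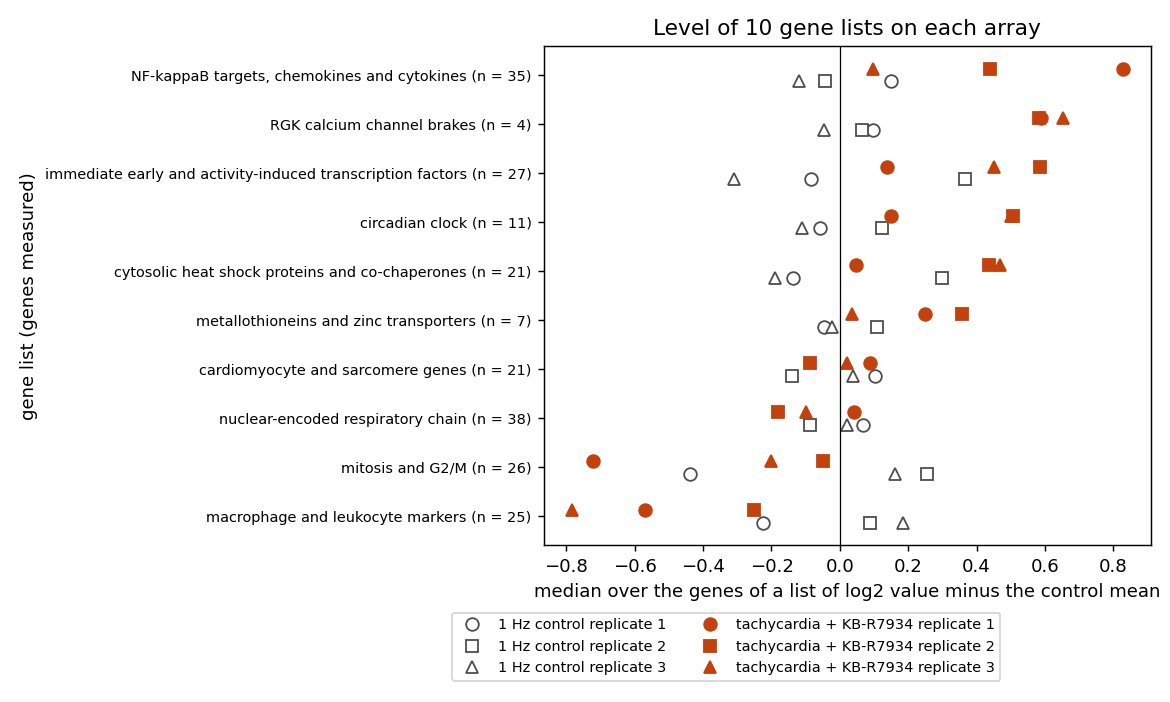
For 10 gene lists (y axis, with the number of genes measured), the median over genes of log2 value minus the control mean (x axis) on each of the 6 arrays, open symbols for the 1 Hz control and filled symbols for tachycardia + KB-R7934, with the shape giving the replicate number. The RGK, clock and macrophage lists have no filled symbol inside the range of the open ones. Each of the other lists has at least 1, among them replicate 3 of the NF-kappaB (0.10) and zinc (0.04) lists. Replicate 1 of the heat shock (0.05) and immediate early (0.14) lists also lies inside it.

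Zinc handling was represented by 7 measured genes, of which 3 were called higher and 1 lower (against 4.31% and 3.70% of all genes). By array, the median of the list in TC + KB replicate 3 was 0.04, inside the range of the controls (-0.05 to 0.11). Slc30a1, the zinc exporter of the cell surface, read 7.58, 8.03 and 7.91 at 1 Hz and 8.64, 8.56 and 9.01 in TC + KB, a difference of 0.89 (SE 0.18, adjusted p = 0.412). Mt2A, a metallothionein that binds zinc and copper, read 11.6, 11.8 and 11.3 against 12.1, 12.2 and 12.2, a difference of 0.61 (SE 0.16, adjusted p = 0.464). Both genes had all TC + KB arrays above the controls, as did Mt3 at 0.63 (SE 0.17). Slc39a10, a zinc importer, stood lower at -0.60 (SE 0.24, adjusted p = 0.563) with overlap. Mt1f, outside the list and chosen after its value was seen, was 1.08 higher (SE 0.21, adjusted p = 0.412). Metallothionein genes resemble each other closely, so probes of one may take signal from another. All 3 called higher genes had a promoter in the table, each with the loose TGCNCNC pattern, in 5 places in Mt2A and Mt3 and in 2 in Slc30a1. At least 5 places were found in 0.257% of all promoters. That cut-off is the count of Mt2A and Mt3 themselves, so the share tests nothing. The promoter of Slc39a10 had no match.

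Among regulators of energy metabolism, both PGC-1 genes were called higher. Ppargc1b (PGC-1beta) read 7.76, 7.20 and 7.48 at 1 Hz and 8.40, 8.29 and 8.19 in TC + KB, a difference of 0.81 (SE 0.17, adjusted p = 0.412), and Ppargc1a (PGC-1alpha) was 0.43 higher (SE 0.14, adjusted p = 0.498). Of 29 genes of fatty acid oxidation, PPAR and PGC-1, the only other call was Acot1, an acyl-CoA thioesterase, at -0.77 (SE 0.24). It was read at a level below the median of all clusters. Of all genes 8.00% were called in either direction. Of 38 nuclear-encoded respiratory chain genes 0 were called (against the same 8.00%), with 35 lower means and a median of -0.08. In glucose use, Hk2, the hexokinase of muscle, read 7.48, 7.63 and 7.40 at 1 Hz and 8.16, 8.25 and 8.04 in TC + KB, a difference of 0.65 (SE 0.12, adjusted p = 0.412). The insulin-responsive transporter Slc2a4 (GLUT4) was 0.44 higher (SE 0.18, adjusted p = 0.574, with overlap) and Pfkfb1 lower (-0.43, SE 0.12). Txnip, an arrestin-fold protein that restrains glucose uptake, read 10.5, 10.1 and 10.3 against 9.72, 8.48 and 8.43, a difference of -1.40 (SE 0.34, adjusted p = 0.451), among the largest of all called genes with lower values.

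Mitosis genes leaned lower. Of 26 genes 24 had lower means, 3 were called lower (against 3.70% of all genes), and the median was -0.33. The mitotic kinase Plk1 read 7.61, 8.20 and 7.94 at 1 Hz and 7.01, 7.21 and 7.21 in TC + KB, a difference of -0.77 (SE 0.17, adjusted p = 0.428), the kinesin gene Kif20a stood at -0.66 (SE 0.19) and cyclin A2 (Ccna2) at -0.57 (SE 0.23, with overlap). Replicate 1 was the lowest array for this list in both groups. The list stood at -0.44, 0.25 and 0.16 in the controls and at -0.72, -0.05 and -0.20 in TC + KB. Without control replicate 1 the median was -0.53 with 12 genes called, against -0.13 with 2 called when TC + KB replicate 1 was left out. Calls with a replicate block are given in the closing section. Among genes of DNA replication and G1/S, 2 of 25 were called lower (against 3.70% of all genes), Mcm7 (-0.35, SE 0.14) and Rrm1 (-0.29, SE 0.12).

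The genes of the contractile apparatus had few calls. Of 21 cardiomyocyte and sarcomere genes 1 was called higher (against 4.31% of all genes), and the median was 0.00. It was Klhl40, which stabilises thin filament proteins in muscle (0.71, SE 0.23). Of 10 hypertrophy markers 1 was called higher (against 4.31% of all genes), Nppb, the gene of B-type natriuretic peptide. It read 12.3, 12.2 and 12.2 at 1 Hz and 12.7, 12.6 and 12.6 in TC + KB (0.41, SE 0.11, adjusted p = 0.463). Nppa, the atrial natriuretic peptide gene, read 12.8, 12.4 and 12.6 against 12.8, 12.4 and 12.5, a difference of -0.02 (SE 0.15, adjusted p = 0.984) with overlapping arrays. Skeletal alpha-actin, Acta1, read 11.20, 10.99 and 11.15 against 11.32, 11.26 and 11.29, a difference of 0.18 (SE 0.11, adjusted p = 0.678). The muscle ubiquitin ligase Trim63 (MuRF1) was 0.37 higher (SE 0.15). Slc8a1, the gene of NCX itself, Rcan1 and Fhl1 were not analysed here, since no cluster in the probe table used carries one of them as its only symbol.

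Genes of signals to neighbouring cells held few calls. Bmp4, a ligand of the BMP family, stood at -0.72 (SE 0.17, adjusted p = 0.451) and endothelin 1 (Edn1), a peptide that constricts vessels and enlarges myocytes, at -0.55 (SE 0.19, and -0.35 without TC + KB replicate 1), while Inhba, which encodes the activin A subunit, was 0.60 higher (SE 0.25, with overlap). These were the 3 calls among 24 genes of TGF-beta, CCN, endothelin and matrix remodelling, where 8.00% of all genes were called in either direction. With each array centred on its median Inhba was no longer called. The growth factor Tgfa was lower (-0.38, SE 0.15) and the sole call of 9 EGF family and ERBB genes (against 8.00% of all genes in either direction). Inhba and Tgfa each lost the call in 4 of 6 omissions of 1 array. In cAMP signalling, Akap1, which anchors protein kinase A to mitochondria, read 7.80, 7.80 and 7.85 at 1 Hz and 8.66, 8.38 and 8.63 in TC + KB, a difference of 0.74 (SE 0.12, adjusted p = 0.412), and the phosphodiesterase gene Pde3b was lower (-0.41, SE 0.14). Other lists had few or no calls. Among 21 interferon-induced genes Rsad2 was higher (0.56) and Mx1 lower (-0.56), against 8.00% of all genes called in either direction. Against the same share, 0 were called of the integrated stress response (25 genes), the unfolded protein response (15), NRF2 and glutathione (15) and cholesterol and fatty acid synthesis (21). The same held for calcineurin, NFAT and MEF2 (8), the BCL2 family and caspases (9) and cell junctions (13). The cytosolic aminoacyl-tRNA synthetases had 2 of 16 called higher, Aars1 (0.40) and Wars1 (0.31), and the proteasome and ubiquitin ligase list 1 of 27, Trim63 (against 4.31% of all genes).

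The genes with the smallest p among those without overlap and with the higher of the group means above the median level of all clusters were of mixed function. Tamalin and Plcxd2 passed that filter through the TC + KB group alone, their control means being 4.95 and 4.62, and Igsf6 and Clec4e through the control group alone, their TC + KB means being 4.96 and 5.20. Tamalin, a scaffold of receptor trafficking, had the smallest p of a named gene, with 4.95, 4.90 and 4.99 at 1 Hz and 5.76, 5.80 and 5.76 in TC + KB (0.83, SE 0.10, adjusted p = 0.412). Mxd1, a partner of Max that opposes Myc, read 7.51, 7.91 and 7.41 against 8.75, 8.75 and 8.66, a difference of 1.11 (SE 0.15, adjusted p = 0.412). In both genes the TC + KB arrays lay within a narrow band. Pacc1, a proton-activated chloride channel, was 0.80 higher (SE 0.11), the autophagy receptor Optn 0.82 (SE 0.13), the Krüppel-like factor Klf5 1.00 (SE 0.17), the Golgi regulator Arfgap3 0.67 (SE 0.11) and the T-cell costimulatory ligand Icoslg 0.65 (SE 0.12). Abtb2, Armcx6, Cfap141 and Plcxd2 completed the 12 with differences of 0.70 to 0.97. Among the largest higher values were Serpinb2 (PAI-2), an inhibitor of plasminogen activators, at 1.73 (SE 0.53, adjusted p = 0.486), and Fnip2, a partner of folliculin, at 1.22 (SE 0.24, adjusted p = 0.412).

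On the lower side Lpar4, a receptor of lysophosphatidic acid, read 9.32, 9.22 and 8.85 at 1 Hz and 8.01, 8.21 and 7.50 in TC + KB, a difference of -1.22 (SE 0.22, adjusted p = 0.412). Slc40a1 (ferroportin), the iron exporter, was lower by -0.63 (SE 0.11), the paraoxonase gene Pon2 by -0.61 (SE 0.11), the homeobox factor Meis1 by -0.63 (SE 0.13), the diacylglycerol kinase gene Dgke by -0.64 (SE 0.13) and Rpa3, a subunit of replication protein A, by -0.58 (SE 0.12). Nudt6, Dtd2, Snupn and Poc5 completed the 12 named for small p together with Igsf6 and Ncf1, with differences of -0.68 to -0.60. All had 3 TC + KB arrays below the 3 controls, as the naming rule requires.

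The series holds the same drug at the same dose with another trigger. Cells were stretched cyclically for 24 h with 10 µM KB-R7934 and compared with static cells (3 arrays each). Trigger, duration, control and culture surface differ between the 2 experiments and cannot be told apart. The comparisons share no array. The difference of the 2 effects was tested in 1 limma fit over 12 arrays, and 2 of 36685 clusters (0.00545%) had an adjusted p under 0.05, with 3305 at an unadjusted p under 0.05. The other of the 2 carries no gene symbol, and the named one was Nr0b2 (SHP), an orphan nuclear receptor without a DNA-binding domain. It read 6.58, 6.17 and 6.73 at 1 Hz and 5.96, 5.75 and 6.06 in TC + KB, a difference of -0.57 (SE 0.18), whereas under stretch with the drug it stood at 1.90 (SE 0.14), and the effects differed by -2.47 (SE 0.23, adjusted p = 0.0122). Ebp, Mvd and Acss2, which make sterols or feed their synthesis, stood at -0.22, 0.09 and -0.12 in TC + KB and at 1.48, 1.45 and 1.29 under stretch with the drug. Their effects differed by -1.69, -1.35 and -1.41, with adjusted p of 0.0592, 0.11 and 0.11, and those of Aacs, which activates acetoacetate, by -1.21 (adjusted p = 0.11), so none of these 4 passed in this fit. Gnrh1 (0.67 against -0.57, adjusted p = 0.0888), Akna (0.70 against -0.53), Armcx6 (0.70 against -0.38) and Slc30a1 (0.89 against -0.47) had opposite signs in the 2 experiments, again without passing in this fit. C14h7orf57 (-0.53 against 1.55) and the stress response genes Atf5 (0.07 against -1.24) and Gtpbp2 (0.22 against -0.82) complete the genes with the smallest p of this test. Of these 11 genes that did not pass, 8 passed with all 18 arrays in 1 fit, 8 without dim clusters and all 11 over clusters with exactly 1 symbol.

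By list, the medians of the integrated stress response were 0.15 in TC + KB and -0.94 under stretch with the drug, those of cholesterol and fatty acid synthesis 0.11 and 1.31, and those of the immediate early genes 0.41 and -0.26. NF-kappaB and cytokine genes had medians of 0.54 and 0.19, the clock 0.40 and -0.02, and heat shock genes 0.33 and -0.16. The macrophage list had -0.53 and -0.60, mitosis -0.33 and -0.33 and the RGK list 0.61 and 0.39. These lists stood on the same side of 0 in both experiments, although members differed, as in Lyz2 (-0.71 against -2.79) or Ncf1 (-0.78 against 0.03). Over all genes, 1692 were called under stretch with the drug (11.6%), 790 higher (5.43%) and 902 lower (6.20%). There were 190 genes called in both, 16.3% of those called in TC + KB and 11.2% of those called under stretch with the drug. Of these, 51 were higher in both, 75 lower in both and 64 opposite. Across genes, which are not independent replicates, the differences of the 2 experiments were correlated at 0.129 (Pearson) and 0.121 (Spearman).

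**Figure D5:**
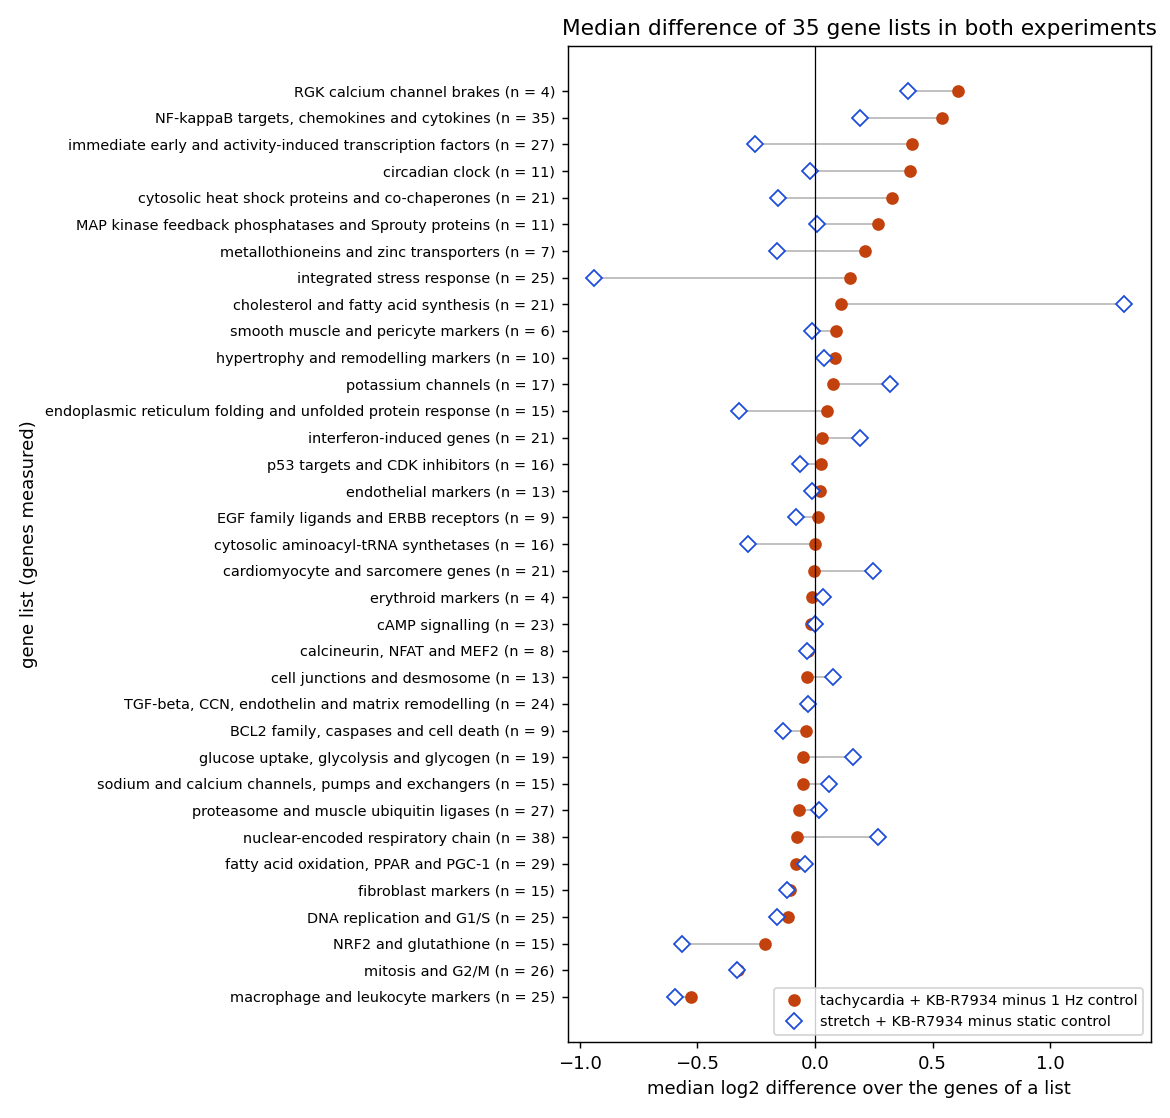
Median log2 difference over the genes of each of 35 lists (y axis, with the number of genes measured), filled circles for tachycardia + KB-R7934 minus 1 Hz control and open diamonds for stretch + KB-R7934 minus static control, 3 arrays per group. The longest lines join 0.11 and 1.31 for cholesterol and fatty acid synthesis and 0.15 and -0.94 for the integrated stress response.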

How the data were processed

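Total RNA of cultured neonatal rat ventricular cardiomyocytes was amplified, labelled with biotin and hybridised to Rat Gene 2.0 ST arrays. The authors deposited log2 expression values per transcript cluster, pre-processed and filtered in Partek Genomics Suite; their background correction and normalisation are not given in the sources used here. Their methods name a two-way ANOVA with Benjamini-Hochberg correction, without stating its factors, and a legend gives the thresholds of p and fold used here; it does not state whether that p was adjusted, and it was read here as unadjusted. Groups came from the sample titles. Genes were named through the platform's probe table (829 clusters with several symbols and 21032 with none were not named), and the brightest cluster over the 6 arrays stood for a gene. Differences were fitted with limma (version 3.58.1, R 4.3.3) over the 6 arrays without a block, and the difference between experiments over 12 arrays. P-values were adjusted over all 36685 clusters. The fits were tested on simulated data.

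The members and the 35 gene lists (621 of 859 written names measured) were chosen with earlier results of these data known. Named genes were, per direction, the 12 with the smallest p and the 6 with the largest difference among called genes without overlap, with the higher group mean above the median of all clusters and with a settled symbol, the 4 members of each list with the smallest p, Slc8a1 and 5 markers of the study, and the 6 per direction with the smallest p for the difference between experiments. Further list members, and genes outside this rule, were named after their values were seen. Alternatives were a replicate block, 9 or 18 arrays in 1 fit, limma's trend and robust options, a t-test and a two-way test without moderation, other scalings, a filter on dim clusters, another fold threshold, another summary per gene and each array left out. Promoter sequences came from RefSeq.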

Additional observations from a re-analysis of the deposited data

Results flagged for a closer look

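Nr0b2 was the named gene whose effects in the 2 experiments differed at an adjusted limma p under 0.05. It differed by -0.57 (SE 0.18) between TC + KB and 1 Hz and by 1.90 (SE 0.14) between stretch with KB-R7934 and static cells, a difference of -2.47 (adjusted p = 0.0122, 3 arrays per group). All 3 TC + KB arrays lay below the 1 Hz controls. The adjusted p lay between 0.00502 and 0.0809 when any 1 of the 12 arrays was left out, and it was over 0.05 without stretch control replicate 2, stretch + KB-R7934 replicate 2, TC + KB replicate 1 or TC + KB replicate 2.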

How the results depend on the processing

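Clusters at an adjusted p under 0.05 numbered 0, and 1 with all 18 arrays in 1 fit, with a range of 0 to 1 when each array was left out (1 without 1 Hz control replicate 3). Clusters at the study's threshold numbered 3165, against 1800 with the two-way test on replicate number and group, 1891 without dim clusters, 1529 over clusters with exactly 1 symbol (the last 2 test fewer clusters) and 1083 at 1.5-fold, and 2334 to 3677 with each array left out. Called genes numbered 1165, against 241 at 1.5-fold and 725 to 1312 with each array left out (725 without 1 Hz control replicate 3). Clusters whose effects differed between the experiments numbered 2, against 1 with the replicate block, 10 under the trend and robust options of limma, 21 when all 18 arrays were fitted together, 19 without dim clusters, 33 over clusters with exactly 1 symbol and 0 to 26 with each array left out (26 without stretch control replicate 1). The median of the NF-kappaB list ranged from 0.25 to 0.70 and that of the zinc list from 0.11 to 0.39 (0.39 without 1 Hz control replicate 2) with each array left out. Nppa changed sign, with a range of -0.1244 to 0.0767 when each array was left out (0.0616 and 0.0126 without TC + KB replicate 2 or 3). Of 1749 combinations of a named gene's difference from 1 Hz and an alternative, 1478 kept direction and side of the threshold, 268 lost the threshold and 3 changed sign (all Nppa). Of 108 called genes followed in this way, 70 stayed called whichever array was left out, 11 lost the call in 1 to 3 of 6 omissions and 27 in 4 or more (Dusp5, Dusp7, Hspa4l, Dnaja4, Aars1, Wars1, Mx1, Ahsp, Rem2, Slc2a4, Ccna2, Mcm7, Rrm1, Gadd45a, Inhba, Tgfa, Trim63, Slc39a10, Csf3, Nfkbie, Aif1, Cd14, Clec4a3, Lcp1, Msr1, Spi1 and Bmal1). For the difference between the experiments, of 11 named genes with an adjusted p over 0.05, 3 passed under the trend and robust options of limma, 6 without stretch control replicate 1 and 1 without 1 Hz control replicate 1, beside the fits given above. Where no construction shows it, the cause was not tested.

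Replicate numbers, and the technical replicates pooled under each, are the same in both groups. The deviations of same-numbered arrays correlated at 0.213, 0.264 and -0.005. Control replicate 1 correlated at -0.211 with TC + KB replicate 2, and control replicate 2 at -0.268 with TC + KB replicate 1. For control replicate 3 the highest value was 0.071, with TC + KB replicate 1. Same-numbered arrays thus deviated alike for replicates 1 and 2 and not for replicate 3. The main fit has no block, and whether the numbers are pairs was not settled. With the replicate block 3916 clusters had an unadjusted p under 0.05 (3189 without it) and the smallest adjusted p was 0.381. Called genes were then 14 among immediate early genes (5 without the block), 16 among mitosis genes (3), 6 among heat shock genes (2) and 19 among NF-kappaB genes (13).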
